A study of Mus musculus with 8 samples.

Results

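Endothelium sets the tone of the vessel wall through a constrictor and a pair of dilators, and the 10 genes described here cover all 3 systems: Edn1, Ednra, Ednrb and Ece1 of the endothelin system, Nos3, Ddah2 and Pde5a of nitric oxide signalling, Ptgis and Ptgs1 of prostacyclin synthesis, and Ace, which makes angiotensin II. They were taken by symbol from a table of 23238 genes, all 10 had a row, and 9 of them were among the 8282 genes with enough counts to be tested. Ednra was the exception.

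Ribosome-bound RNA of lung endothelial cells was sequenced in 8 libraries from C57BL/6J mice. In 4 of them the genotype was Cdh5-CreERT2;Sox17fl/fl;RPL22tm1.1Psam, so that Sox17 had been deleted in adult endothelium, and the mice were kept in hypoxia for 3 weeks. The 4 control libraries came from Cdh5-CreERT2;RPL22tm1.1Psam mice kept in room air over the same period. The mice of both groups received tamoxifen at 8 weeks of age, 2 mg on each of 5 days, and entered hypoxia or room air at 10 weeks. Cdh5-CreERT2 is a tamoxifen-inducible recombinase driven by the promoter of VE-cadherin, an endothelial adhesion protein, and the RPL22tm1.1Psam (RiboTag) allele puts a haemagglutinin tag on a ribosomal protein wherever the recombinase acts. Tagged ribosomes were then pulled out of whole lung. The labels do not give the sex of the mice, the oxygen level or the number of mice per library. Genotype and oxygen changed together between the groups and cannot be told apart, and neither can fewer cells of a type and less RNA per cell.

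Endothelin-1, the product of Edn1, is made as a precursor that the endothelin-converting enzyme encoded by Ece1 cuts to the active peptide. It constricts vessels through the receptor encoded by Ednra, which sits mainly on smooth muscle, while the endothelial receptor encoded by Ednrb clears the peptide and stimulates release of nitric oxide and prostacyclin. Endothelial nitric oxide synthase (Nos3) makes nitric oxide, which raises cyclic GMP in smooth muscle, Pde5a encodes the phosphodiesterase that breaks cyclic GMP down, and the enzyme encoded by Ddah2 is described as removing methylated arginines that inhibit the synthase. Prostacyclin, a dilator that also restrains platelets, is made from arachidonic acid by cyclooxygenase (Ptgs1) and then prostacyclin synthase (Ptgis). Drugs against pulmonary arterial hypertension act on these same 3 systems.

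Totals ranged from 7000313 to 12913304 counts in Sox17-deleted hypoxic libraries and from 10567561 to 11884614 in control libraries. Levels are counts-per-million (CPM) of the library total. The kit reads the 3′ end of each transcript, so CPM values were not divided by length and levels are compared between libraries, not between genes. The deleted gene, Sox17, had 473, 31, 6 and 41 counts in Sox17-deleted hypoxic libraries 1 to 4, against 3072, 2591, 2442 and 2442 in control libraries 1 to 4; whether the sequenced 3′ end lies in the deleted part is not given in the labels. The Sox17-deleted hypoxic libraries had more gaps. Of the 3700 to 3764 genes that averaged at least 50 CPM in the other 7 libraries, 3.18% to 6.32% had 0 or 1 count in a Sox17-deleted hypoxic library, against 0.242% to 0.939% in a control library. Endothelial markers were present in every library, with 16 markers that summed to 10508 to 17053 CPM in Sox17-deleted hypoxic and 14971 to 17063 CPM in control libraries. The deposited tables of Sox17-deleted hypoxic libraries 2, 3 and 4 have names that share a number, and the labels do not say whether these libraries share an animal. Their log2 CPM correlated at r = 0.33 to 0.43 across 3705 genes, against 0.36 to 0.45 with library 1, where genes are not independent replicates. Control libraries correlated with one another at r = 0.66 to 0.76, and Sox17-deleted hypoxic with control libraries at 0.39 to 0.60. Low values were thus shared by all pairs of Sox17-deleted hypoxic libraries and do not tell whether any share an animal.

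The promoter windows are shown because the study removed a SOX factor and lowered oxygen. RefSeq starts on GRCm38.p6 were listed for 8 of the 10 genes, with 12 starts in all. The 250 bases before each were searched on both strands for ACAAT, a core of SOX sites, and ACGTG, a core of hypoxia response elements. These do not share bases in any window below. No other form of either core was searched, so other forms are neither marked nor counted. The windows of Edn1 (chr13:42301226-42301475, plus strand), of the third Ece1 start (chr4:137913308-137913557, plus strand) and of Ddah2 (chr17:35058785-35059034, plus strand) held a match, in capitals, and read 5′ to 3′ as follows.
Edn1: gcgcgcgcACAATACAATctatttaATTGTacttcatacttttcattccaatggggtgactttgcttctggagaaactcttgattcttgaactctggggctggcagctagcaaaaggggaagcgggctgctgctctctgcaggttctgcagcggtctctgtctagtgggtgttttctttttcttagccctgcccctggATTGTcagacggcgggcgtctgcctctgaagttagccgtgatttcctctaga
Ece1: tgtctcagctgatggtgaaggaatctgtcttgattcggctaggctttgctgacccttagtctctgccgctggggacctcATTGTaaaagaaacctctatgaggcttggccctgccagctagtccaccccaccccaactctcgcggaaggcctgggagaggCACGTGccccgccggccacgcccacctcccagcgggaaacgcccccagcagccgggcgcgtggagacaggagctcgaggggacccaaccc
Ddah2: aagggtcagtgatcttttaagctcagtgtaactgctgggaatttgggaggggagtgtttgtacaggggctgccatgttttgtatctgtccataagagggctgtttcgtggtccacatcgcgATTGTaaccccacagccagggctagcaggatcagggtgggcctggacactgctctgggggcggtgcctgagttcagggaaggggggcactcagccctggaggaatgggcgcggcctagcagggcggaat
Edn1 had 4 SOX cores, a pair of them side by side, and no hypoxia core. Ece1 had 1 SOX core and a palindrome that reads as a hypoxia core on either strand, and Ddah2 had 1 SOX core. A SOX core was thus in 3 of the 12 windows of these genes (25.0%), against 27.7% of all 32851 windows, and a hypoxia core in 1 of 12 (8.33%), against 16.6%. Letters that match are a description and not a binding site, and no match in 250 bases says nothing about the factor.

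None of the 9 genes tested passed edgeR's quasi-likelihood test after Benjamini-Hochberg adjustment over all 8282 genes, where 0 genes in all passed (0%). The deleted gene, Sox17, was lower without overlap and did not pass either (log2 fold change −4.39, SE 1.01; edgeR adjusted p 0.346). Missing this test is therefore not evidence of no change. At an unadjusted p under 0.05, edgeR gave 1 of the 9, Ptgis, against 424 of all 8282 genes (5.12%; 2.06% with a positive log2 fold change). Ptgis was also the 1 gene of the 10 whose groups did not overlap in CPM, higher in all 4 Sox17-deleted hypoxic libraries, where 1.63% of tested genes lay higher without overlap and 6.59% lay higher or lower. Log2 fold changes, Sox17-deleted hypoxia minus control, were positive for 4 genes (Nos3, Pde5a, Ptgis and Ddah2) and negative for 5 (Edn1, Ednrb, Ece1, Ptgs1 and Ace), with a median of −0.14 against −0.01 over all genes tested. Both counts rest on 1 gene, Ptgis, and so say nothing about the 10 genes as a list.

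**Figure D1:**
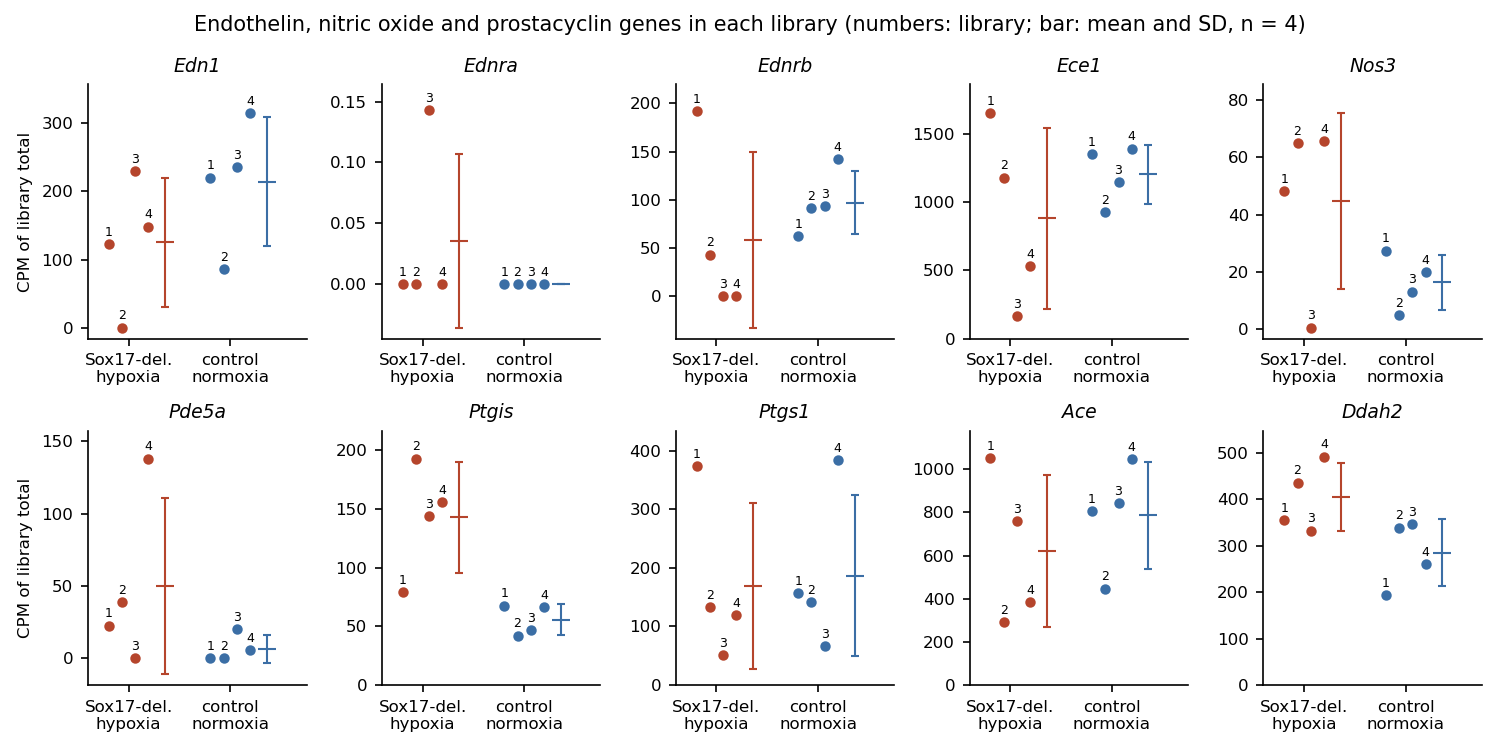
CPM of library total (y axis, linear) of each of the 10 genes in Sox17-deleted hypoxic libraries (red) and control libraries (blue). Points are libraries with their numbers and bars are mean and SD (n = 4). Ptgis points are at 79.3 CPM or more in Sox17-deleted hypoxic libraries and at 67.7 CPM or less in controls, while the points of the other genes overlap or are at 0.

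Ptgis (chromosome 2, 167191805 to 167240604, minus strand, GRCm38), the gene of prostacyclin synthase, had 79.3, 193, 144 and 156 CPM in Sox17-deleted hypoxic libraries 1 to 4, against 67.7, 42.0, 46.8 and 66.6 CPM in control libraries 1 to 4. The lowest Sox17-deleted hypoxic library, 1, lay just above the highest control, and libraries 2 to 4 lay well above every control. The means were 143 ± 47.3 CPM in Sox17-deleted hypoxia and 55.8 ± 13.3 CPM in controls (SD, n = 4 each), a ratio of 2.56. On the log2 scale this was 1.37 (SE 0.61; edgeR p 0.0407, adjusted p 0.902). Adjusted p values under the alternatives lay between 0.0359 and 1.00, and the lowest was DESeq2's, which called Ptgis (log2 fold change 1.47) as 1 of 122 genes it called higher (1.24% of those given an adjusted p). The estimate stayed between 1.26 and 1.59 when any 1 library was left out. It was 1.16 (edgeR p 0.0939) with the like-named Sox17-deleted hypoxic libraries 2 to 4 summed as 1 sample. An RNA gene on the opposite strand, 1110018N20Rik, covers the 3′ end of Ptgis and shares up to 156 exon bases with it; it has no row in the tables used here, and its reads could not be told from those of Ptgis without strand.

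Smooth muscle cells and fibroblasts also make prostacyclin synthase, and the fibroblast sum lay above the control range in all 4 Sox17-deleted hypoxic libraries and the smooth muscle and pericyte sum in libraries 2 and 4, although no single marker passed edgeR's test. Fibroblast markers, 12 in the list, summed to 1031, 2606, 825 and 9267 CPM in Sox17-deleted hypoxic libraries 1 to 4, against 608 to 798 CPM in controls; 7 of the 10 tested had a positive log2 fold change, and Lum had 3 or fewer counts in every library. The most abundant, Gsn, had 469 to 8208 CPM in Sox17-deleted hypoxic and 243 to 481 CPM in control libraries. Of the collagens in the list, Col1a1 (−2.13) and Col3a1 (−0.04) had a negative log2 fold change and Col1a2 (1.54) a positive one. Smooth muscle and pericyte markers, also 12, summed to 96.3, 365, 61.1 and 665 CPM in Sox17-deleted hypoxic libraries, against 88.9 to 168 CPM in controls; 3 of the 5 tested had a positive log2 fold change and Actg2 had 3 or fewer counts in every library. Myh11, the most abundant of these, had 3.29 to 496 CPM in Sox17-deleted hypoxic and 10.5 to 68.1 CPM in control libraries. Within the Sox17-deleted hypoxic group, both sums were lowest in library 3 and highest in library 4. Ptgis was lowest in library 1 and highest in library 2. The part of these cells in the Ptgis level was not tested in any library.

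**Figure D2:**
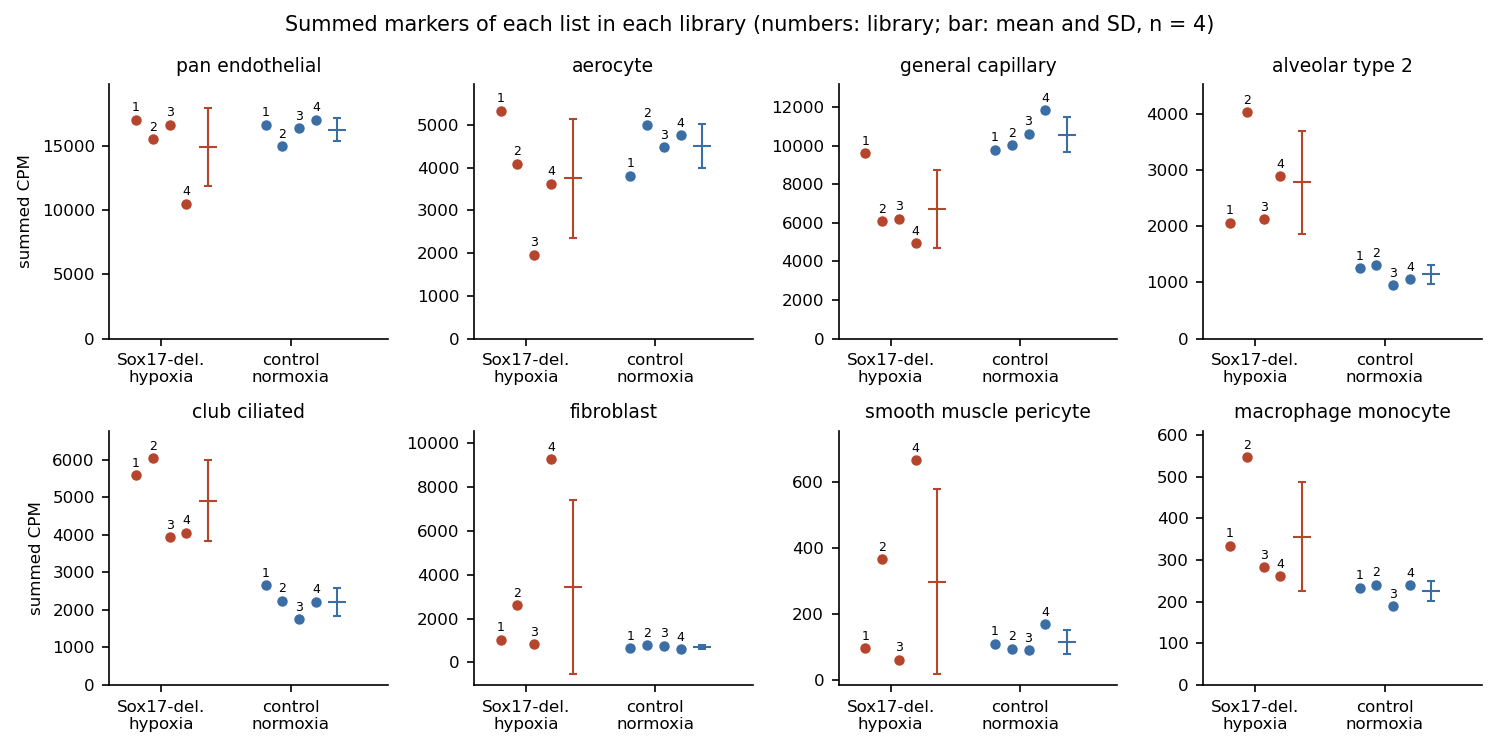
Summed CPM of library total (y axis, linear) of 8 marker lists in Sox17-deleted hypoxic libraries (red) and control libraries (blue). Points are libraries with their numbers and bars are mean and SD (n = 4). Alveolar type 2 sums are at 2066 to 4040 CPM in Sox17-deleted hypoxic libraries, all above the 954 to 1310 CPM of controls, and library 4 is the high point of the fibroblast list at 9267 CPM.

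The epithelial and macrophage sums did not overlap between the groups either. Alveolar type 2 markers (9 of 11 tested with a positive log2 fold change; most abundant Sftpc, at 1010 to 1808 CPM in Sox17-deleted hypoxia and 379 to 534 CPM in controls) summed to 2066 to 4040 CPM in Sox17-deleted hypoxic and 954 to 1310 CPM in control libraries. Club and ciliated markers (6 of 6; Scgb1a1, at 2250 to 4407 CPM in Sox17-deleted hypoxia and 886 to 1809 CPM in controls) summed to 3948 to 6054 CPM in Sox17-deleted hypoxic and 1758 to 2670 CPM in control libraries. Macrophage and monocyte markers (5 of 6; Ly6c2, at 46.8 to 215 CPM in Sox17-deleted hypoxia and 103 to 169 CPM in controls; Adgre1 at 0 counts throughout) summed to 261 to 547 CPM in Sox17-deleted hypoxic and 189 to 241 CPM in control libraries. Their part in the values of the 10 genes was not tested.

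Ptgs1 (chromosome 2, 36230426 to 36252272, plus strand), which encodes the constitutive cyclooxygenase upstream of prostacyclin synthase, did not share the pattern of Ptgis. It had 374, 133, 50.7 and 119 CPM in Sox17-deleted hypoxic libraries 1 to 4, against 157, 141, 66.1 and 384 CPM in control libraries 1 to 4. Each group had 1 high library, library 1 in hypoxia and library 4 among controls, and the groups covered nearly the same range. The log2 fold change was −0.14 (SE 0.65; edgeR adjusted p 1.00). Platelets carry this enzyme as well, and 8 platelet markers together reached at most 6.57 CPM in a Sox17-deleted hypoxic and 12.6 CPM in a control library. Of these, Gp9, Gp1ba, Treml1 and Tubb1 were at 0 counts in all 8 libraries. Itga2b, the most abundant, was at 0 CPM in Sox17-deleted hypoxic and at 0 to 6.25 CPM in control libraries. The part of platelets in the Ptgs1 level was not tested.

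Edn1 (chromosome 13, 42301476 to 42307990, plus strand), the gene of the endothelin-1 precursor, had 123, 0.212, 229 and 148 CPM in Sox17-deleted hypoxic libraries 1 to 4, against 220, 86.1, 235 and 314 CPM in control libraries 1 to 4. Library 2 of the Sox17-deleted hypoxic group held 2 counts of Edn1, while the other 7 libraries held 953 to 3726. The remaining 3 Sox17-deleted hypoxic libraries lay within the control range. Means were 125 ± 94.8 CPM in Sox17-deleted hypoxia and 214 ± 94.4 CPM in controls (SD, n = 4 each), and the log2 fold change of −0.69 (SE 1.02; edgeR adjusted p 1.00) became −0.24 when Sox17-deleted hypoxic library 2 was left out and −1.25 when library 3 was. The same library 2 had 0 or 1 count for 216 of the 3700 genes that averaged at least 50 CPM elsewhere.

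Ece1 (chromosome 4, 137862237 to 137965229, plus strand), whose enzyme activates endothelin, spread over a 10.0-fold range within the Sox17-deleted hypoxic group. It had 1649, 1178, 164 and 530 CPM there in libraries 1 to 4, against 1349, 926, 1144 and 1390 CPM in control libraries 1 to 4. Libraries 3 and 4 lay below every control, library 1 lay above every control and library 2 lay between. The control values were much closer to one another. Its log2 fold change was −0.46 (SE 0.51; edgeR adjusted p 1.00), and it was −0.12 without library 3 of the Sox17-deleted hypoxic group, −1.0 without library 1, and −0.03 with libraries 2 to 4 summed as 1 sample.

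Ednrb (chromosome 14, 103814625 to 103844402, minus strand), the clearing receptor and in mouse lung a marker of aerocytes, the gas-exchange capillary cells, had 2482, 408, 0 and 0 counts in Sox17-deleted hypoxic libraries 1 to 4, which is 192, 43.2, 0 and 0 CPM. Control libraries 1 to 4 had 62.4, 91.6, 93.2 and 142 CPM. A count of 0 allows up to 0.429 CPM in library 3 and 0.269 CPM in library 4 (3 counts, counting error only). Ednrb was above every control in library 1. Libraries 3 and 4 had 0 or 1 count for 6.32% and 3.18% of genes that averaged at least 50 CPM elsewhere. Their 0 counts of Ednrb cannot be told apart from such gaps. For Ednrb the log2 fold change was −0.71 (SE 1.60; edgeR adjusted p 1.00), and −2.86 without Sox17-deleted hypoxic library 1, when the groups no longer overlapped. It was −0.30 without library 3 and likewise without library 4, −5.28 with limma-voom and −5.09 with the replicate number as a block, none past the test. The 8 other aerocyte markers, Emp2 the most abundant at 530 to 1659 CPM in Sox17-deleted hypoxia and 1139 to 1482 CPM in controls, summed to 5335, 4090, 1965 and 3622 CPM in Sox17-deleted hypoxic libraries 1 to 4, against 3811 to 4994 CPM in controls. Library 1 was highest for both Ednrb and these markers, and library 3 had no Ednrb count and the lowest sum. Library 4 had no Ednrb count and a sum close to the control range. The part of aerocytes in the Ednrb level was not tested.

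Ednra (chromosome 8, 77663031 to 77724464, minus strand), the contractile receptor of smooth muscle, had a single read in all 8 libraries, 1 count in Sox17-deleted hypoxic library 3. With 3 counts as the floor, its level was below 0.232 to 0.429 CPM in every library, and no change can be read from it. Smooth muscle markers reached 665 CPM in Sox17-deleted hypoxic library 4, where Ednra had no count.

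Nos3 (chromosome 5, 24364810 to 24384474, plus strand), endothelial nitric oxide synthase, had 48.1, 64.9, 0.286 and 65.7 CPM in Sox17-deleted hypoxic libraries 1 to 4, against 27.3, 4.70, 12.9 and 19.9 CPM in control libraries 1 to 4. Sox17-deleted hypoxic libraries 1, 2 and 4 lay above every control and library 3, with 2 counts, lay below them all. Means were 44.7 ± 30.7 CPM in Sox17-deleted hypoxia and 16.2 ± 9.69 CPM in controls (SD, n = 4 each), and the log2 fold change was 1.42 (SE 1.63; edgeR adjusted p 1.00). It was 1.83 without Sox17-deleted hypoxic library 3, still short of the test (edgeR adjusted p 1.00).

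Counts of Nos3 and its neighbour could not be kept apart in these tables. Atg9b, an autophagy gene on the opposite strand, covers the 3′ end of Nos3, which is the part these libraries sequence, and shares 294 exon bases with it. Nos3 had 621, 613, 2 and 733 counts in Sox17-deleted hypoxic libraries 1 to 4 and 289, 52, 150 and 237 in control libraries 1 to 4. Atg9b had 38, 613, 0 and 213 counts in Sox17-deleted hypoxic libraries and 189, 0, 145 and 200 in control libraries. The counts were equal in Sox17-deleted hypoxic library 2 and Atg9b never exceeded Nos3. Across the tables, coding genes that meet tail to tail with shared exon bases had equal counts in 278 of 2111 cases in which both reached 50 counts (13.2%), against 4 of 4252 cases (0.0941%) for tail-to-tail neighbours with no shared bases. How much of the Nos3 level comes from reads of Atg9b in the shared bases cannot be told.

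Pde5a (chromosome 3, 122728947 to 122859374, plus strand), whose enzyme breaks down cyclic GMP and is the target of sildenafil, had 22.6, 38.7, 0 and 138 CPM in Sox17-deleted hypoxic libraries 1 to 4, against 0, 0, 20.0 and 5.39 CPM in control libraries 1 to 4. Libraries 1, 2 and 4 of the Sox17-deleted hypoxic group lay above every control, and library 3 had 0 counts like control libraries 1 and 2. Means were 49.9 ± 61.0 CPM in Sox17-deleted hypoxia and 6.35 ± 9.46 CPM in controls (SD, n = 4 each), and the log2 fold change was 2.98 (SE 2.40; edgeR adjusted p 1.00). It was 1.70 without Sox17-deleted hypoxic library 4 and 4.75 without control library 3. Pde5a is mainly a gene of smooth muscle and pericytes, and the markers of these cells summed to 96.3, 365, 61.1 and 665 CPM in Sox17-deleted hypoxic libraries 1 to 4, against 109, 93.7, 88.9 and 168 CPM in control libraries 1 to 4. The sums followed the order of Pde5a over the Sox17-deleted hypoxic libraries but not over the controls, where library 3 had the highest Pde5a and the lowest sum; their part in the Pde5a level was not tested.

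Ddah2 (chromosome 17, 35059035 to 35062095, plus strand) had the narrowest spread of the 10 genes among Sox17-deleted hypoxic libraries, 1.48-fold from lowest to highest. It had 356, 436, 333 and 492 CPM in Sox17-deleted hypoxic libraries 1 to 4, against 194, 339, 346 and 261 CPM in control libraries 1 to 4. Libraries 1, 2 and 4 of the Sox17-deleted hypoxic group were above every control and library 3 was just below controls 2 and 3. The means were 404 ± 73.2 CPM in Sox17-deleted hypoxia and 285 ± 72.0 CPM in controls (SD, n = 4 each), a ratio of 1.42, and the log2 fold change was 0.52 (SE 0.34; edgeR p 0.147, adjusted p 1.00). When CPM was scaled by TMM or RLE factors instead of library totals, the Ddah2 groups no longer overlapped, so the count of genes without overlap was 2 of 10 instead of 1, where 6.51% (TMM) and 6.42% (RLE) of all tested genes did not overlap.

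Ace (chromosome 11, 105967945 to 105989964, plus strand), the angiotensin-converting enzyme of the capillary surface, which also degrades the dilator bradykinin, had 1051, 291, 759 and 385 CPM in Sox17-deleted hypoxic libraries 1 to 4, against 806, 446, 844 and 1047 CPM in control libraries 1 to 4. Libraries 2 and 4 of the Sox17-deleted hypoxic group were below every control, and libraries 1 and 3 were within or just above the control range. The log2 fold change was −0.28 (SE 0.43; edgeR adjusted p 1.00), and −0.01 without Sox17-deleted hypoxic library 2. General capillary markers, 9 in the list with 1 of 7 tested showing a positive log2 fold change, summed to 9619, 6097, 6218 and 4934 CPM in Sox17-deleted hypoxic libraries 1 to 4, against 9796 to 11834 CPM in controls, and Cd93 was the most abundant at 1152 to 3184 CPM in Sox17-deleted hypoxia and 2784 to 4119 CPM in controls. Within the Sox17-deleted hypoxic group, library 1 was the highest for both, while Ace was lowest in library 2 and the sum was lowest in library 4. The part of capillary cells in the Ace level was not tested. Arterial markers, 10 in the list with 1 of 8 tested showing a positive log2 fold change, summed to 777 to 1814 CPM in Sox17-deleted hypoxic and 1600 to 2049 CPM in control libraries, and the list includes Sox17 itself.

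**Figure D3:**
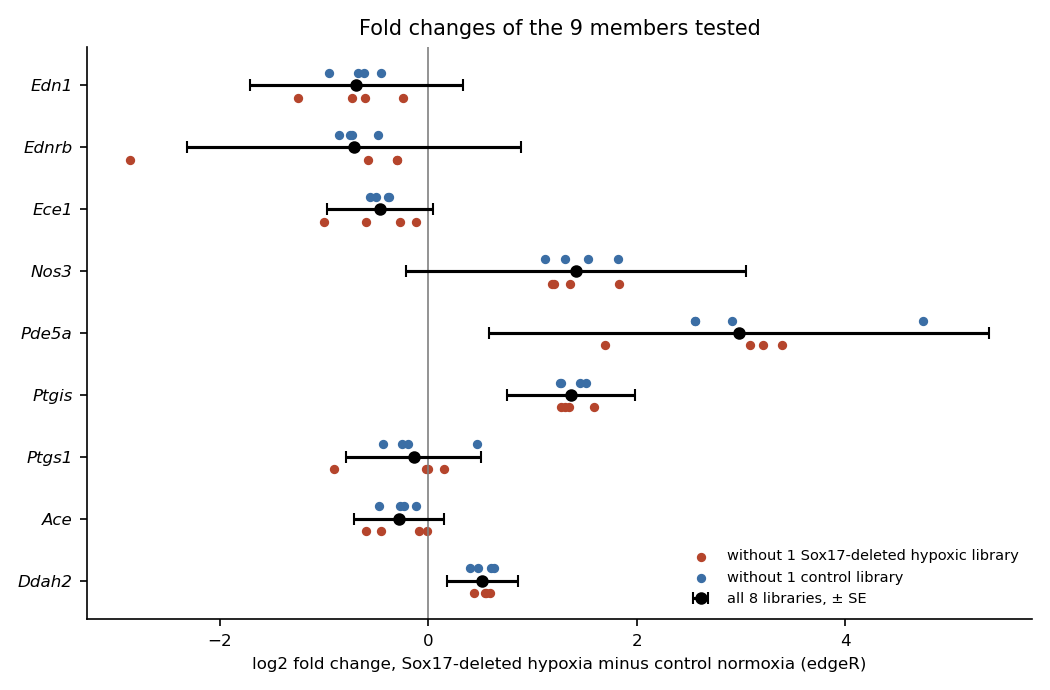
Log2 fold change (x axis), Sox17-deleted hypoxia minus control, of the 9 genes tested by edgeR, one gene per line. Black points and bars are the estimate and SE from all 8 libraries, red points leave out 1 Sox17-deleted hypoxic library and blue points 1 control library. Ptgis (1.26 to 1.59), Ddah2 (0.40 to 0.63) and Nos3 (1.12 to 1.83) stay right of 0, while Ednrb reaches −2.86 and Ptgs1 spans −0.90 to 0.47.

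The 4 Sox17-deleted hypoxic libraries did not move as a block across these genes. Library 1 had the highest Ece1, Ednrb, Ptgs1 and Ace of its group and the lowest Ptgis. Library 3 had no Ednrb or Pde5a count, 2 counts of Nos3 and the lowest Ece1 and Ptgs1, yet the highest Edn1 of its group. Library 4 had the highest Pde5a, Nos3 and Ddah2. Library 1 also kept the most Sox17, with 473 counts against 6 to 41 in the other 3, and lies outside the like-named libraries 2 to 4. Whether either goes with its levels of these genes was not tested.

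Genes with a like profile over the 8 libraries were named for the 3 members with the highest mean CPM, by the root-mean-square distance of centred log2(CPM + 1) among 3704 other genes. For Ece1 they were Id3, Cdc42ep4 and Smad6 (0.25, 0.26 and 0.26, against a median distance of 1.33). For Ace they were Cdk14, Tmem71 and Smad7 (0.23, 0.29 and 0.30, against 1.13). For Ddah2 they were Emc10, Srsf11 and H3f3b (0.17, 0.18 and 0.20, against 0.98). These genes were picked as the 3 nearest, so distances under the median follow from the selection. Shared regulation was not tested.

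Of 55 further genes of these pathways, 19 were tested, none passed edgeR's test over all genes, and 10 had a positive and 9 a negative log2 fold change. An edgeR unadjusted p under 0.05 was found for Spr and Ptges2, both positive, and for Hpgd, negative, which is 3 of 19, against 424 of all 8282 genes (5.12%). Of the 36 genes not tested, 18 had no count in any library. These included the endothelin genes Edn2 and Edn3, the inducible cyclooxygenase Ptgs2, the prostacyclin receptor Ptgir, the neuronal synthase Nos1 and the angiotensin receptor Agtr2, so prostacyclin and angiotensin receptors could not be followed here.

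**Figure D4:**
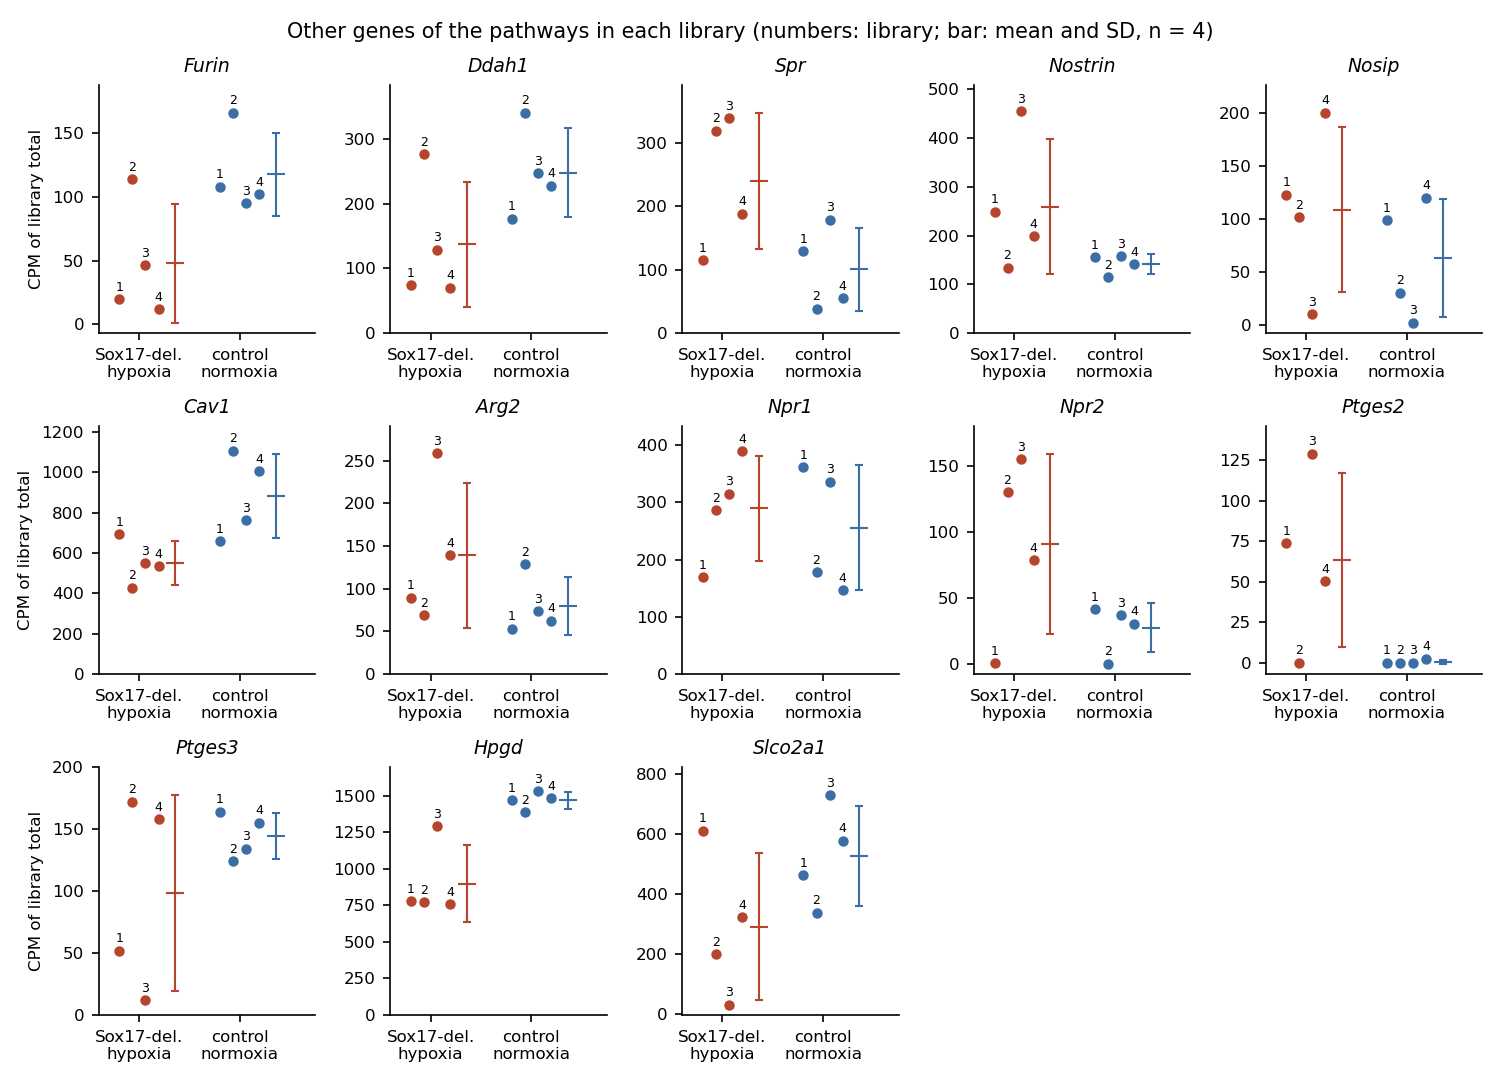
CPM of library total (y axis, linear) of 13 further pathway genes in Sox17-deleted hypoxic libraries (red) and control libraries (blue). Points are libraries with their numbers and bars are mean and SD (n = 4). Hpgd is at 758 to 1289 CPM in Sox17-deleted hypoxic libraries, below the 1386 to 1528 CPM of controls, and Ptges2 is near 0 in all but 3 libraries.

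Among prostanoid genes, Hpgd, whose enzyme inactivates prostaglandins, had 778, 769, 1289 and 758 CPM in Sox17-deleted hypoxic libraries 1 to 4, against 1468, 1386, 1528 and 1482 CPM in control libraries 1 to 4. All 4 Sox17-deleted hypoxic libraries were below every control, 3 of them at similar levels and library 3 close to the controls, where 4.96% of all tested genes lay lower without overlap. Hpgd had a log2 fold change of −0.66 (SE 0.31; edgeR p 0.0494, adjusted p 0.976). Slco2a1, the transporter that takes prostaglandins up for this breakdown, had 611, 200, 32.7 and 322 CPM in Sox17-deleted hypoxic libraries, against 463, 338, 728 and 577 CPM in control libraries. Its Sox17-deleted hypoxic values spread 18.7-fold and overlapped the controls (log2 fold change −0.85, SE 0.60; edgeR adjusted p 1.00).

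The prostaglandin E synthase gene Ptges2 had 952, 0, 906 and 559 counts in Sox17-deleted hypoxic libraries 1 to 4, against 0, 0, 0 and 29 in control libraries 1 to 4. It was high in 3 of the 4 Sox17-deleted hypoxic libraries and at 0 in library 2, so the groups overlapped. Ptges2 had a log2 fold change of 6.76 (SE 2.68; edgeR p 0.0245, adjusted p 0.742), which depends on the prior count since most controls were at 0, and DESeq2 called it at an adjusted p of 0.0453. Ptges3, a co-chaperone also described as a prostaglandin E synthase, had 98.5 ± 78.8 CPM in Sox17-deleted hypoxic and 144 ± 18.3 CPM in control libraries (SD, n = 4 each; edgeR adjusted p 1.00).

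In the nitric oxide list, 11 of 18 genes were tested, with 8 positive and 3 negative log2 fold changes. Over all 8282 genes tested, 4110 were positive and 4172 negative. None of the 11 passed edgeR's test, and the split itself was not tested. Spr, whose enzyme completes synthesis of tetrahydrobiopterin, a cofactor of nitric oxide synthase, had 115, 319, 339 and 188 CPM in Sox17-deleted hypoxic libraries 1 to 4, against 129, 38.2, 179 and 55.4 CPM in control libraries 1 to 4. Libraries 2, 3 and 4 of the Sox17-deleted hypoxic group were above every control and library 1 was below controls 1 and 3 (log2 fold change 1.31, SE 0.58; edgeR p 0.0397, adjusted p 0.898). Cav1, the caveolar protein that restrains endothelial nitric oxide synthase, had 692, 428, 550 and 534 CPM in Sox17-deleted hypoxic libraries, against 658, 1106, 763 and 1004 CPM in control libraries, so that 3 of 4 lay below every control (log2 fold change −0.65, SE 0.32; edgeR p 0.0572, adjusted p 1.00).

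Nostrin, which takes part in endocytosis of the synthase, had 259 ± 139 CPM in Sox17-deleted hypoxic and 142 ± 20.0 CPM in control libraries, and Ddah1, the paralogue of Ddah2, had 137 ± 96.6 CPM in Sox17-deleted hypoxia and 249 ± 68.6 CPM in controls (SD, n = 4 each). The log2 fold changes were 0.93 (SE 0.47) for Nostrin and −0.85 (SE 0.50) for Ddah1, each with an edgeR adjusted p of 1.00, and the groups overlapped for both. Ddah1 thus had a negative and Ddah2 a positive estimate, neither past the test. Arg2, an arginase that competes for the substrate of the synthase, had 139 ± 85.5 CPM in Sox17-deleted hypoxia and 79.5 ± 33.8 CPM in controls. Nosip, whose product binds the synthase, had 109 ± 77.8 CPM in Sox17-deleted hypoxia and 63.0 ± 55.4 CPM in controls (SD, n = 4 each). The groups overlapped for Arg2 (log2 fold change 0.87, SE 0.64, edgeR p 0.195) and for Nosip (0.75, SE 1.03, edgeR p 0.479).

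The natriuretic peptide receptors, which make cyclic GMP without nitric oxide, overlapped between groups. Npr1 had 290 ± 91.6 CPM in Sox17-deleted hypoxic and 256 ± 109 CPM in control libraries (SD, n = 4 each). Npr2 had 90.8 ± 68.1 CPM in Sox17-deleted hypoxic and 27.1 ± 18.6 CPM in control libraries (SD, n = 4 each). The Npr2 means include 6 counts in Sox17-deleted hypoxic library 1 and 1 count in control library 2. Log2 fold changes were 0.20 (SE 0.42, edgeR p 0.64) for Npr1 and 1.79 (SE 1.47, edgeR p 0.244) for Npr2. In the endothelin list Furin, a protease that cuts the Edn1 precursor before the enzyme of Ece1 does, was the 1 gene of 6 that was tested. It had 19.7, 114, 46.3 and 11.7 CPM in Sox17-deleted hypoxic libraries 1 to 4, against 108, 166, 95.2 and 102 CPM in control libraries 1 to 4, below every control in 3 of 4 (log2 fold change −1.30, SE 0.81; edgeR adjusted p 1.00). In the angiotensin and kinin list 1 of 12 genes was tested and 7 had no count.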

How the data were processed

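Ribosome-bound RNA was measured in 8 lung libraries (groups as above). Per the labels' protocols, libraries were made with a QuantSeq 3′ kit; the submitters' processing notes name Bowtie2, bedtools and mm10, but no version, setting or strand handling. The deposited values are raw counts per gene symbol; 44 duplicate rows were summed. Totals and floors (3 counts, 0.232 to 0.429 CPM) cover counting error only. P-values measure the spread between libraries, which may be partly technical.

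Groups were compared in R 4.3.3 with edgeR 4.0.16 (TMM, filterByExpr, group-only quasi-likelihood F test, Benjamini-Hochberg over all genes, adjusted p under 0.05), after a check on simulated data. The SE is the fold change over the square root of F. Alternatives used DESeq2 1.42.0 and limma 3.58.1. Same-numbered libraries were not paired: their deviations correlated at −0.052 to 0.007. Chi-square per degree of freedom was at least 188 for every pair of libraries, so none was a plain copy of another; this does not tell separate animals from separate preparations. The members, lists and tests were chosen with earlier results of these data known. Named were the members, pathway genes averaging at least 50 CPM or with an edgeR p under 0.05, the most abundant marker of other cell types, and the nearest profiles. Atg9b and Sox17 were added after values were seen. A gene of the pathway lists is not reported here. Positions are from GENCODE M21 (GRCm38, also called mm10).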

Additional observations from a re-analysis of the deposited data

Results flagged for a closer look

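In groups of 4 libraries, a sample far from its neighbours was looked for in 44 groups of values of the members and the further pathway genes, and 2 were found; chance flags about 1 in 20. Hpgd stood at 1289 CPM in Sox17-deleted hypoxic library 3, far above the other 3 libraries of that group. Ptges2 stood at 2.44 CPM in control library 4, where the other 3 controls had no count.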

How the results depend on the processing

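Over 158 alternative values of the 9 members' log2 fold changes, 152 kept direction and side of the threshold, 5 changed sign and 1, Ptgis under DESeq2, passed it. Ptgs1 (−0.14) was 0.39 with the 3 like-named Sox17-deleted hypoxic libraries summed to 1, and ran from −0.90 to 0.47 with 1 library left out, positive without control library 4 (0.47) or Sox17-deleted hypoxic library 3 (0.15) or 4 (0.00). Ednrb was 0.12 with the 3 libraries summed. The cause was not tested. Members past the test numbered 0, and 1 (Ptgis) with DESeq2; further pathway genes numbered 0, and 1 (Ptges2) with DESeq2. All genes past the test numbered 0, but 17 without a low-count filter, 4 at a mean of at least 100 CPM, 469 with DESeq2, 44 with limma-voom, 1 with robust estimation, 1 with the 3 libraries summed, and 0 to 5 with 1 library left out (5 without Sox17-deleted hypoxic library 1). Members with no overlap numbered 1, but 2 (Ptgis and Ddah2) with TMM or RLE scaling (6.51% and 6.42% of all genes) and 1 to 4 with 1 library left out: 2 without Sox17-deleted hypoxic library 1 (Ptgis and Ednrb, 14.0% of all genes) and 4 without library 3 (Nos3, Pde5a, Ptgis and Ddah2, 11.3%).

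With the replicate number as a block, 0 members and 0 genes in all passed, and the Ptgis log2 fold change was 1.34; the numbers share nothing that the labels state, 1 of 4 libraries correlated best with its own number, and pairing changed no call. The gaps in the Sox17-deleted hypoxic libraries, at depths of 7000313 to 12913304 counts, limit what can be said of genes such as Ednrb, Nos3 and Pde5a.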
